A study of Homo sapiens with 14 samples.

Results

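The genes examined here encode proteins of 4 DNA repair routes, namely mismatch repair, base excision repair, nucleotide excision repair and nonhomologous end joining. They were chosen by gene name and make up 46 of the 59471 gene names in the count tables. Of these, 6 belong to mismatch repair, 19 to base excision repair together with single-strand break repair, 12 to nucleotide excision repair and 9 to end joining. RNA-seq was performed in SCC23 cells, an established line of human head and neck squamous cell carcinoma (HNSCC), to compare cells with and without the histone methyltransferase KMT2D, and cells with and without glucose. The 14 libraries came from 2 experiments.

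KMT2D-WT cells had received a Cas9 plasmid with a control guide against LacZ, and lines KO1 and KO2 (KMT2D-KO) the same plasmid with a guide against KMT2D, so that all groups share the exposure to Cas9. Cells were either kept in glucose (+Glc) or deprived of it for 6 h (-Glc). In each glucose condition there were 3 KMT2D-WT libraries, 1 from experiment 1 and 2 from experiment 2, and 4 KMT2D-KO libraries, with 1 of KO1 and 1 of KO2 per experiment. The knockout lines were grown from sorted transfected cells, and single-cell cloning was not described. The paper states that the 2 experiments were independent. Whether the libraries of a group within 1 experiment were separate cultures is not given in the sources used here, so p-values measure the spread between these libraries. Values below are CPM (counts scaled to a common library size after TMM), listed as experiment 1 and then the 2 libraries of experiment 2 for KMT2D-WT, and as KO1 and KO2 of experiment 1 and then KO1 and KO2 of experiment 2 for KMT2D-KO.

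Mismatch repair removes bases that were misincorporated during replication, while base excision repair removes single damaged bases through a glycosylase, an apurinic endonuclease, a polymerase and a ligase. Nucleotide excision repair cuts out a short stretch of DNA around bulky lesions, which are found either by XPC and the DDB1-DDB2 dimer across the genome or by ERCC6 and ERCC8 where RNA polymerase has stalled. End joining rejoins double-strand breaks after the XRCC5-XRCC6 (Ku) dimer has bound their ends. KMT2D methylates histone H3 at lysine 4, mainly at enhancers.

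Promoter sequences are shown for 6 genes, of which MPG was higher and the others lower in KMT2D-KO. Each passed the test in its own direction with and without glucose, and again after near-identical libraries were summed. The upstream DNA of these genes can thus be read beside their values. The sequences are RefSeq promoters (GRCh38.p14) of 300 bases, from 250 before to 50 after the start of transcription, printed 5′ to 3′ on the strand of the gene. The windows were PARP2 at chr14:20343385-20343684 on the plus strand, XPC at chr3:14178552-14178851 on the minus strand, ERCC6 at chr10:49539489-49539788 on the minus strand, UVSSA at chr4:1346958-1347257 on the plus strand, XRCC4 at chr5:83077297-83077596 on the plus strand and MPG at chr16:77975-78274 on the plus strand. Of the 46 genes, 42 had an entry. For ERCC6, which had 2 entries, the window at the first base of the gene in the count files was taken. The UVSSA and MPG windows start transcription 1517 and 1218 bases away from that first base. Capitals mark matches on both strands to the GC box GGGCGG, the NF-Y motif CCAAT and the cAMP response element TGACGTCA.
PARP2: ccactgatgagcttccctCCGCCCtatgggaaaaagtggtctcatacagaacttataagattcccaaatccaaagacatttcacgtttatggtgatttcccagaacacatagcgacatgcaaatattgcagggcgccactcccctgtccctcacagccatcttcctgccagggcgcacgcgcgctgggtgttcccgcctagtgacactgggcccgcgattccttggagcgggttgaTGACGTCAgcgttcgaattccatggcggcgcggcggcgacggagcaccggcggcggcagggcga
XPC: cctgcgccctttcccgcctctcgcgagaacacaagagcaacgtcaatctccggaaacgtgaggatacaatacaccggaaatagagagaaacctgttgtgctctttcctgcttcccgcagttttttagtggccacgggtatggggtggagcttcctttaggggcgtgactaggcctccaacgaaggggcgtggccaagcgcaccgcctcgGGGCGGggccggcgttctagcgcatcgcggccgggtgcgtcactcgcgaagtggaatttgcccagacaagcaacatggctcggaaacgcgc
ERCC6: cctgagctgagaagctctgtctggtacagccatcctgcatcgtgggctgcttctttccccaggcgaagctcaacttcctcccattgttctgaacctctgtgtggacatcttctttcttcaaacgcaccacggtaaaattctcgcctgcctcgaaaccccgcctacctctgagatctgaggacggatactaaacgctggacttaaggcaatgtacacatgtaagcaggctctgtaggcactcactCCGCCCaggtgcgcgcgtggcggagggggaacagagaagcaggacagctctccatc
UVSSA: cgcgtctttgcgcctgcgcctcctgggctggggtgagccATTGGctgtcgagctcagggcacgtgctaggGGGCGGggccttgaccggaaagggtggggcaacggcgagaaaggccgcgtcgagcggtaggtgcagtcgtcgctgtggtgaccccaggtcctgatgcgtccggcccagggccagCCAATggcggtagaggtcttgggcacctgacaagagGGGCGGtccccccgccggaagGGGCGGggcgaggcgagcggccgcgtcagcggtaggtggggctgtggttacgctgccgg
XRCC4: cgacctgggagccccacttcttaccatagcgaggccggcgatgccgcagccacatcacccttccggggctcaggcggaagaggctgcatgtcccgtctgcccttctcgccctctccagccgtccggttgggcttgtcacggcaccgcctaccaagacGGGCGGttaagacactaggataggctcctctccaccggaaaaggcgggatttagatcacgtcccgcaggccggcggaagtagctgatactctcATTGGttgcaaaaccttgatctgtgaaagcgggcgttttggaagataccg
MPG: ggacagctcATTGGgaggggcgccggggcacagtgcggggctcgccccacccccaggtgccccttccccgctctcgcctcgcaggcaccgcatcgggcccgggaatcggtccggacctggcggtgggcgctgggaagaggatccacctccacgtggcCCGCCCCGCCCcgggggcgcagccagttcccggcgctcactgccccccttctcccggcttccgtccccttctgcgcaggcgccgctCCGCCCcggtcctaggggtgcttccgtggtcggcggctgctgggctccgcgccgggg

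A GC box was found in all 6 windows and in 45% of the 35116 promoters of the same length. The NF-Y motif was found in UVSSA, XRCC4 and MPG, against 34.6% of all promoters, and a cAMP response element in PARP2, against 1.85%. The ETS motif CCGGAAGT, held by 4.14% of all promoters, the E2F motif TTTGGCGC, held by 0.652%, and the TATA box TATAAA, held by 11.5%, were in none of the 6. No motif searched here overlapped another, except for GC boxes in MPG that share bases. GC content ranged from 55.3% in ERCC6 to 77.0% in MPG, against a median of 58.7% over all promoters, and the number of CpG dinucleotides from 14 to 34, against a median of 14. These are matches of letters only, and no binding was measured.

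The libraries held 15669154 to 62968057 counts (median 24817708), and each of the 46 genes was tested in every comparison. In the 4 libraries of experiment 2 with glucose each mate was counted on its own, so their depth in fragments is lower than their totals. KMT2D itself was at 279, 266 and 271 CPM in the KMT2D-WT libraries and 182, 323, 184 and 373 CPM in the KMT2D-KO libraries with glucose and at 239, 233 and 231 CPM in the KMT2D-WT libraries and 19.9, 190.2, 152 and 145 CPM in the KMT2D-KO libraries without. Its RNA in KO2 with glucose was thus above all KMT2D-WT libraries, and KO1 of experiment 1 without glucose stood apart as the lowest. Count tables do not show small edits of the coding sequence, so these values do not check the knockout labels, which are used below as given. The 2 KMT2D-WT libraries and the 2 KMT2D-KO libraries of experiment 2 without glucose were nearly alike, with a chi-square per gene of 1.71 and 1.78, against 26 to 93.3 for the other pairs. This includes the libraries labelled KO1 and KO2. Whether they are repeat libraries of the same cells, or whether their line labels hold, is not given in the sources used here. Results without glucose are therefore given with all 7 libraries and again with each close pair summed to 1 sample. If a line label does not hold, the KMT2D-KO group without glucose is an uneven mix of the lines. The difference between glucose conditions would then mix line with glucose, which was not tested.

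Squamous markers were present, with 9 of 10 at a mean of at least 1 CPM and a summed level of 1341 to 2039 CPM in KMT2D-WT and 1085 to 2138 CPM in KMT2D-KO libraries with glucose, and of 1683 to 2009 and 2146 to 3639 CPM without. Of 11 fibroblast, endothelial and immune markers, 9 had a mean under 1 CPM and none was at 0 in all 14 libraries. Their summed level was 6.25 to 8.27 CPM in KMT2D-WT and 16.8 to 21.0 CPM in KMT2D-KO libraries with glucose, and 3.56 to 6.12 and 9.71 to 16.2 CPM without. These sums were mostly COL1A1, and of the immune markers CD3E and PTPRC reached at most 0.0627 CPM, LYZ 0.123 CPM and CD68 0.290 CPM. Their part in the results below was not tested. In such bulk samples, fewer cells of a type and less RNA per cell cannot be told apart.

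Levels per kilobase of exon differed widely between the genes. In KMT2D-WT cells with glucose the highest were APEX1, the main apurinic endonuclease, at 125.3 ± 25.9 (SD, n = 3) CPM per kilobase, XRCC6 at 124.9 ± 7.54, XRCC5 at 106.3 ± 18.7 and RAD23B, the partner of XPC, at 83.7 ± 11.8. The first 3 did not differ beyond their spread. The lowest was MUTYH, the adenine glycosylase, at 0.367 ± 0.0225 CPM per kilobase, below ERCC5, a nucleotide excision nuclease, at 0.820 ± 0.0177 and NHEJ1, a ligation factor, at 0.833 ± 0.206. Other genes share 40.1% (MUTYH), 56.0% (ERCC5) and 29.8% (NHEJ1) of the exonic bases of these 3, where reads can be lost in counting, so their levels may be understated and their order is uncertain. XPC, ERCC6 and UVSSA were at 5.63 ± 1.07, 7.71 ± 1.503 and 2.996 ± 0.386 CPM per kilobase.

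Comparing KMT2D-KO with KMT2D-WT libraries asked which repair genes differ in level in cells edited at KMT2D. With glucose, 13 of the 46 genes were lower and 3 higher by edgeR's quasi-likelihood test at a Benjamini-Hochberg adjusted p under 0.05, where 11.7% of the 20423 genes tested were lower and 13.0% higher. Without glucose, 18 were lower and 6 higher, against 24.9% and 25.9% of 16782 genes. After the close pairs were summed, 7 were lower and 1 higher, against 7.52% and 8.99% of 16867 genes. The share of lower genes among the 46 was thus above the background in each of these tests, and the share of higher genes was below it. When single libraries were left out, the number with glucose went from 16 to 6 (KMT2D-WT of experiment 1) and to 9 (second KMT2D-WT of experiment 2), and the number without glucose from 24 to 40 (KO1 of experiment 1) and to 15 (KO2 of experiment 2). The shares of all genes passing in those fits were 10.0%, 16.2%, 74.4% and 37.6% in the same order, so the counts moved with those over all genes. The median log2 fold change over the 46 genes was -0.17 with glucose and -0.23 without, while the medians over all genes tested were 0.02 and 0.00.

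By route, the lower genes with glucose were 1 of 6 in mismatch repair, 4 of 19 in base excision, 5 of 12 in nucleotide excision and 3 of 9 in end joining, and all 3 higher genes were in base excision. Without glucose the lower genes were 3, 7, 4 and 4 in the same order, with 4 higher in base excision, 1 in nucleotide excision and 1 in end joining. The median log2 fold change of the mismatch genes was -0.14 with glucose and -0.40 without, and those of the other routes were -0.08 and -0.22 (base excision), -0.32 and -0.25 (nucleotide excision) and -0.10 and -0.21 (end joining). Per library, all 6 mismatch genes were below KMT2D-WT of their own experiment in 3 of the 4 KMT2D-KO libraries without glucose, 2 of them the close pair of experiment 2, and 5 in the other. With glucose 3 were below it in KO1 and KO2 of experiment 1, 5 in KO1 and 6 in KO2 of experiment 2. In each of the 8 KMT2D-KO libraries 9 of the 12 nucleotide excision genes, not always the same ones, were below it. Of the 19 base excision genes 9 to 13 and of the 9 end-joining genes 5 or 6 were below it per library, and of all genes with a mean of at least 1 CPM 45.4% to 52.0% were. Groups separated without overlap, every KMT2D-KO library below every KMT2D-WT library, for 6 genes with glucose and 9 without, against 12.2% of 14144 and 18.3% of 14163 genes with a mean of at least 1 CPM. They separated in the other direction for 1 and 6 genes, against 10.7% and 17.3%. The shares of genes separated downward were near those of all genes.

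**Figure D1:**
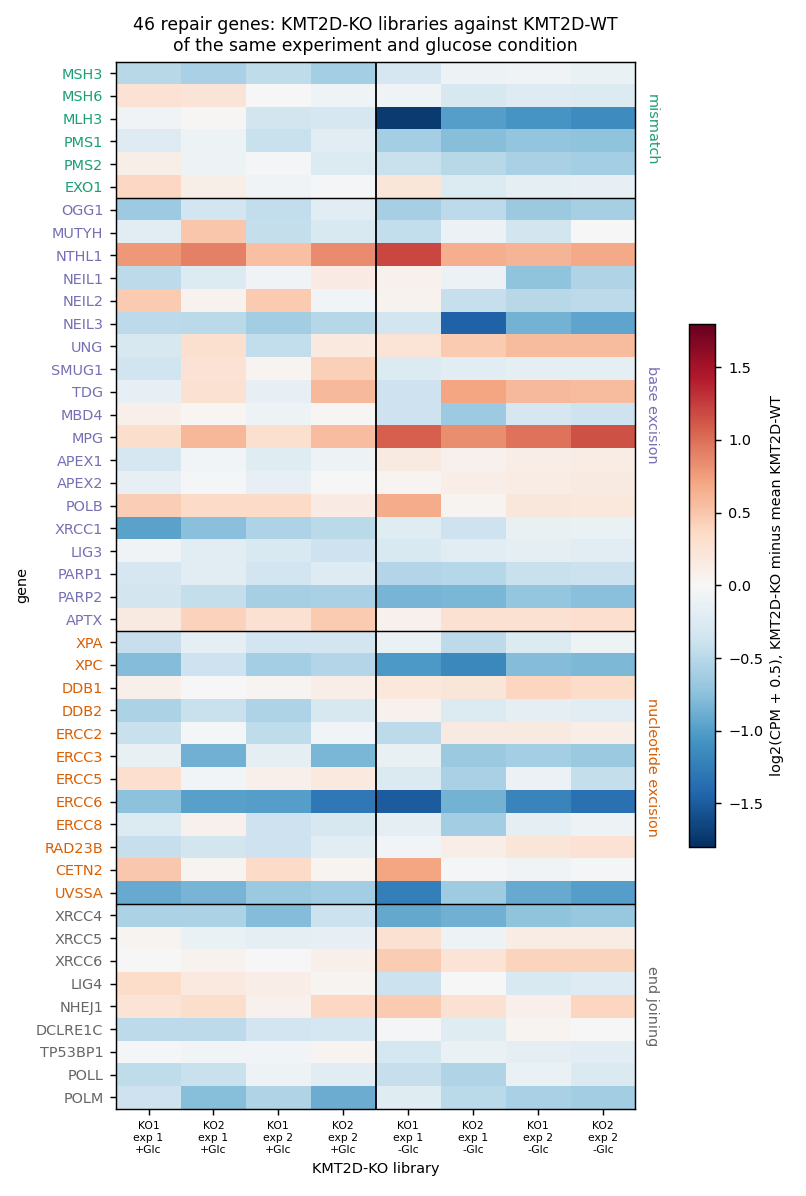
Each row is 1 of the 46 repair genes, ordered by route, and each column 1 KMT2D-KO library; colour gives log2(CPM + 0.5) minus the mean of the KMT2D-WT libraries of the same experiment and glucose condition. ERCC6, UVSSA, XPC, PARP2 and XRCC4 are blue and NTHL1 and MPG red in all 8 columns, and MLH3 is darker in the 4 columns without glucose than in the 4 with it.

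Of the 5 lower genes that passed in both glucose conditions, also after summing, 3 belong to nucleotide excision repair (ERCC6, UVSSA and XPC), 1 to base excision repair (PARP2) and 1 to end joining (XRCC4). The share of all genes that passed in each of these tests at once is not given here, so this split describes the named genes only. ERCC6, the CSB translocase that binds stalled RNA polymerase, was with glucose at 107, 157 and 146 CPM in the KMT2D-WT libraries and 63.8, 53.7, 75.9 and 61.7 CPM in the KMT2D-KO libraries. The groups did not overlap, and the log2 fold change was -1.02 ± 0.12 (SE) with an adjusted p = 0.000402 by edgeR's quasi-likelihood test. Without glucose it was at 121, 154 and 156 CPM in the KMT2D-WT libraries and 42.6, 66.5, 67.6 and 60.9 CPM in the KMT2D-KO libraries, again without overlap, a log2 fold change of -1.24 ± 0.14 (SE) with an adjusted p = 0.000493 in the same edgeR test and 0.0293 after summing. UVSSA, which brings a deubiquitinase to the stalled polymerase, was with glucose at 43.9, 56.9 and 51.3 CPM in the KMT2D-WT libraries and 23.2, 24.4, 33.96 and 34.9 CPM in the KMT2D-KO libraries. Every KMT2D-KO library was below every KMT2D-WT library, with a log2 fold change of -0.74 ± 0.09 (SE) and an adjusted p = 0.000718 by edgeR's test. In the absence of glucose UVSSA was at 32.9, 29.5 and 28.2 CPM in the KMT2D-WT libraries and 13.7, 20.9, 15.2 and 14.2 CPM in the KMT2D-KO libraries, also without overlap, with -0.98 ± 0.13 (SE) on the log2 scale and an adjusted p = 0.00116 in edgeR, or 0.0461 after summing. ERCC8, the CSA partner of ERCC6, did not pass, with log2 fold changes of -0.23 and -0.26.

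XPC, the lesion sensor of the genome-wide branch, was with glucose at 31.6, 22.1 and 24.6 CPM in the KMT2D-WT libraries and 18.1, 24.3, 15.2 and 16.1 CPM in the KMT2D-KO libraries. Within each experiment the KMT2D-KO libraries were the lower, whereas KO2 of experiment 1 lay among the KMT2D-WT libraries of experiment 2, and the log2 fold change was -0.57 ± 0.13 (SE) with an adjusted p = 0.0109 by edgeR's test. That call was lost without KMT2D-WT of experiment 1 or the second KMT2D-WT of experiment 2 (adjusted p = 0.0542 to 0.0874 in edgeR). Without glucose XPC was at 33.01, 27.5 and 28.4 CPM in the KMT2D-WT libraries and 15.8, 14.5, 16.1 and 15.8 CPM in the KMT2D-KO libraries, with no overlap, a log2 fold change of -0.95 ± 0.09 (SE) and an adjusted p = 0.000299 in the same edgeR test, or 0.0267 after summing. Of the exonic bases of XPC, 24.6% are shared with other genes, including an antisense gene, and counting ignored strand. The 3 genes lie at chr10:49454470-49539538 (ERCC6), chr4:1345691-1395989 (UVSSA) and chr3:14145147-14178621 (XPC) of GRCh38, as the count files give them.

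PARP2, which makes poly(ADP-ribose) at single-strand breaks, was with glucose at 96.7, 77.3 and 87.3 CPM in the KMT2D-WT libraries and 76.99, 71.4, 54.2 and 54.8 CPM in the KMT2D-KO libraries. No KMT2D-KO library reached the lowest KMT2D-WT library, although the gap was narrow, and the log2 fold change was -0.51 ± 0.09 (SE) with an adjusted p = 0.00393 by edgeR's test. Without glucose it was at 112, 94.7 and 98.5 CPM in the KMT2D-WT libraries and 62.5, 62.8, 59.5 and 57.3 CPM in the KMT2D-KO libraries, a wider separation, with -0.79 ± 0.06 (SE) on the log2 scale and an adjusted p = 0.000144 in edgeR, or 0.0251 after summing. XRCC4, the scaffold of the end-joining ligase, was with glucose at 9.36, 11.5 and 15.3 CPM in the KMT2D-WT libraries and 6.14, 6.15, 7.49 and 10.01 CPM in the KMT2D-KO libraries. The groups overlapped across experiments but not within them, and the log2 fold change was -0.61 ± 0.16 (SE) with an adjusted p = 0.022 by edgeR's test, which rose to between 0.0601 and 0.123 when any of 3 libraries was left out (KMT2D-WT of experiment 1, the second KMT2D-WT of experiment 2, or KO1 of experiment 2). Without glucose XRCC4 was at 8.297, 18.2 and 17.3 CPM in the KMT2D-WT libraries and 4.14, 4.32, 10.5 and 10.8 CPM in the KMT2D-KO libraries, with -0.84 ± 0.10 (SE) on the log2 scale and an adjusted p = 0.000552 in edgeR, or 0.041 after summing. Its ligase partner LIG4 had log2 fold changes of 0.16 with and -0.25 without glucose, neither of which passed.

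MPG, the glycosylase that removes alkylated purines, moved the other way. It was with glucose at 30.8, 15.3 and 17.6 CPM in the KMT2D-WT libraries and 38.5, 46.7, 20.1 and 24.4 CPM in the KMT2D-KO libraries. The libraries overlapped across experiments, KMT2D-KO being the higher within each, and the log2 fold change was 0.46 ± 0.12 (SE) with an adjusted p = 0.0236 by edgeR's test, or 0.0674 to 0.166 when the KMT2D-WT library of experiment 1, the first of experiment 2 or KO2 of experiment 2 was left out. Without glucose MPG was at 32.4, 17.9 and 17.2 CPM in the KMT2D-WT libraries and 68.95, 58.5, 34.9 and 39.5 CPM in the KMT2D-KO libraries, every KMT2D-KO library being above every KMT2D-WT library, with 1.02 ± 0.10 (SE) on the log2 scale and an adjusted p = 0.000326 in edgeR, or 0.0257 after summing. MPG shares 30.1% of its exonic bases with NPRL3, and reads of the shared part were not assigned by strand.

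**Figure D2:**
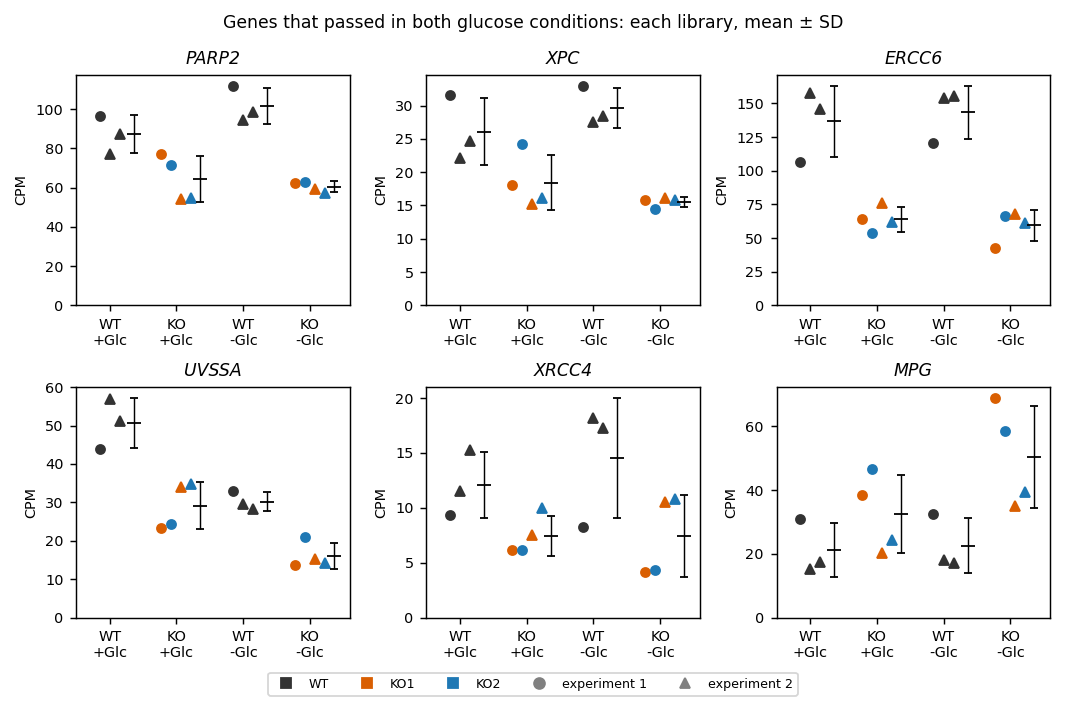
CPM of 6 genes in each library, by genotype and glucose condition; circles are experiment 1, triangles experiment 2, colours the line, and the bar beside each group its mean ± SD (n = 3 or 4). For ERCC6 the KMT2D-KO points lie between 42.6 and 75.9 CPM and the KMT2D-WT points between 107 and 157 CPM, and for MPG the points without glucose separate upward.

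Among the mismatch genes, MSH3, which recognises larger loops, passed with glucose and not without it. With glucose it was at 28.9, 55.9 and 56.2 CPM in the KMT2D-WT libraries and 20.2, 19.1, 40.8 and 36.6 CPM in the KMT2D-KO libraries, lower in KMT2D-KO within each experiment though overlapping across them, with a log2 fold change of -0.54 ± 0.09 (SE) and an adjusted p = 0.00284 by edgeR's test. The value without glucose was -0.15 ± 0.07 (SE) with an adjusted p = 0.114 in edgeR. MLH3, a MutL subunit, fell without glucose, where it was at 26.7, 39.3 and 37.3 CPM in the KMT2D-WT libraries and 7.77, 13.2, 18.2 and 17.2 CPM in the KMT2D-KO libraries. Those groups did not overlap, the log2 fold change was -1.22 ± 0.15 (SE) with an adjusted p = 0.000794 by edgeR's test, and the adjusted p was 0.0356 after summing. PMS1, another MutL subunit, was without glucose at 14.96, 35.7 and 35.5 CPM in the KMT2D-WT libraries and 9.65, 8.58, 21.5 and 21.3 CPM in the KMT2D-KO libraries, low in both genotypes in experiment 1, with -0.75 ± 0.09 (SE) on the log2 scale and an adjusted p = 0.000702 in edgeR, or 0.049 after summing. PMS2, the MutL endonuclease subunit, had -0.57 ± 0.09 (SE) without glucose and an adjusted p = 0.00216 in edgeR, which became 0.0837 after summing, and it has 12 pseudogene copies that could take its reads. MSH6, which recognises single mismatches, and EXO1, the exonuclease that removes the mismatched strand, passed in neither condition, with log2 fold changes of 0.08 and 0.07 with glucose and -0.23 and -0.11 without.

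Among the base excision glycosylases, NTHL1, which removes oxidised pyrimidines, was with glucose at 14.97, 7.25 and 7.96 CPM in the KMT2D-WT libraries and 26.2, 28.5, 11.3 and 14.1 CPM in the KMT2D-KO libraries. It was the higher in KMT2D-KO within each experiment, while KO1 and KO2 of experiment 2 lay below the KMT2D-WT library of experiment 1. The log2 fold change was 0.80 ± 0.13 (SE) with an adjusted p = 0.00217 by edgeR's test, and without glucose 0.78 ± 0.18 (SE) with an adjusted p = 0.0104 in edgeR, which became 0.0835 after summing and 0.0849 when KMT2D-WT of experiment 1 was left out. NEIL3, a glycosylase of replicating cells, was with glucose at 19.9, 30.1 and 35.2 CPM in the KMT2D-WT libraries and 14.3, 14.1, 20.9 and 22.6 CPM in the KMT2D-KO libraries. Its KMT2D-KO libraries were the lower within each experiment, with -0.54 ± 0.10 (SE) on the log2 scale and an adjusted p = 0.00527 in edgeR. Without glucose NEIL3 was at 16.1, 27.3 and 25.7 CPM in the KMT2D-WT libraries and 12.7, 5.55, 14.5 and 13.5 CPM in the KMT2D-KO libraries, with no overlap and lowest in KO2 of experiment 1, and the log2 fold change was -0.90 ± 0.26 (SE) with an adjusted p = 0.026 by edgeR's test, or 0.185 after summing. Of 20 S and G2/M phase genes, 8 were lower and 1 higher with glucose, where 11.7% and 13.0% of all genes were, so the share of lower genes was above that background. Their summed level was 4985 to 5314 CPM in KMT2D-KO and 6978 to 7996 CPM in KMT2D-WT libraries. Much of that gap was MKI67, a marker of cycling cells, at a mean of 1019 CPM in KMT2D-KO and 2420 CPM in KMT2D-WT libraries. Without glucose 9 were lower and 3 higher, against 24.9% and 25.9% of all genes, with summed levels of 4218 to 5063 and 5991 to 6340 CPM, and 3 were lower and 2 higher after the close pairs were summed, against 7.52% and 8.99%. The part of these genes in the NEIL3 values was not tested.

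XRCC1, the scaffold of single-strand break repair, was with glucose at 100.1, 40.3 and 50.7 CPM in the KMT2D-WT libraries and 51.2, 59.4, 30.6 and 32.3 CPM in the KMT2D-KO libraries. The gap was widest in experiment 1, the log2 fold change was -0.65 ± 0.12 (SE) with an adjusted p = 0.00383 by edgeR's test, and the adjusted p was 0.0717 when KMT2D-WT of experiment 1 was left out. Without glucose it had -0.21 ± 0.08 (SE) with an adjusted p = 0.0587 in edgeR, and 28.2% of its exonic bases are shared with other genes. PARP1, the main poly(ADP-ribose) polymerase, was with glucose at 452, 389 and 401 CPM in the KMT2D-WT libraries and 367, 392, 312 and 337 CPM in the KMT2D-KO libraries. KO2 of experiment 1 lay above the lower KMT2D-WT library, with -0.26 ± 0.07 (SE) on the log2 scale and an adjusted p = 0.0305 in edgeR, a call that ended when any of 6 of the 7 libraries was left out (0.0503 to 0.126), all but KO2 of experiment 1. Without glucose PARP1 was at 489.5, 449.5 and 449 CPM in the KMT2D-WT libraries and 339, 341, 340.4 and 344 CPM in the KMT2D-KO libraries, with no overlap, a log2 fold change of -0.46 ± 0.05 (SE) and an adjusted p = 0.000623 by edgeR's test, or 0.0509 after summing. With an offset for gene length PARP1 came to -0.20 without glucose and -0.15 with it, and passed in neither. APTX, which removes adenylate from failed ligation ends, was with glucose at 63.2, 52.2 and 51.7 CPM in the KMT2D-WT libraries and 71.03, 84.1, 62.9 and 72.2 CPM in the KMT2D-KO libraries. Its log2 fold changes were 0.35 with and 0.22 without glucose, with adjusted p = 0.0268 and 0.0255 in edgeR, which became 0.268 after summing, and leaving out any of 5 of the 7 libraries ended either call.

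The other base excision genes that passed did so without glucose and not after summing. OGG1, the glycosylase for oxidised guanine, had a log2 fold change of -0.63, MBD4 and SMUG1, which remove thymine or uracil from mispairs, -0.42 and -0.22, and LIG3, the ligase bound to XRCC1, -0.23, which came to -0.0082 and did not pass with an offset for gene length. UNG, the main uracil glycosylase, had a log2 fold change of 0.47, with every KMT2D-KO library above every KMT2D-WT library. OGG1 also separated without overlap in both conditions, although its adjusted p with glucose was 0.0588 in edgeR. POLB, the gap-filling polymerase, was above KMT2D-WT in every KMT2D-KO library in both conditions but did not pass, at 0.33 and 0.26. MUTYH, NEIL1, NEIL2, TDG, APEX1 and APEX2 passed in neither condition.

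In nucleotide excision repair, DDB2, the damage-binding partner of DDB1, was with glucose at 48.9, 29.2 and 37.6 CPM in the KMT2D-WT libraries and 32.9, 37.03, 22.3 and 27.1 CPM in the KMT2D-KO libraries, with a log2 fold change of -0.45 ± 0.12 (SE) and an adjusted p = 0.0252 by edgeR's test. It overlapped across experiments, leaving out KMT2D-WT of experiment 1, the second KMT2D-WT of experiment 2 or KO1 of experiment 2 ended the call (0.0629 to 0.155), and without glucose its value was -0.16. RAD23B was with glucose at 328, 395 and 436 CPM in the KMT2D-WT libraries and 247, 259.7, 321 and 359.8 CPM in the KMT2D-KO libraries. The libraries were lower in KMT2D-KO within each experiment, with -0.31 ± 0.08 (SE) on the log2 scale and an adjusted p = 0.0188 in edgeR, or 0.054 to 0.145 without any of the same 3 libraries, and 3 pseudogene copies could take its reads. DDB1, the adaptor of the damage-binding ligase, passed as higher and ERCC3, the XPB helicase, as lower without glucose, with log2 fold changes of 0.28 and -0.56, and neither passed after summing. With glucose ERCC3 was at 153, 92.3, 114 and 73.2 CPM in the KMT2D-KO libraries, lower in KO2 in each experiment. Without glucose these were at 136, 93.2, 77.3 and 74.5 CPM, lower in KO2 in experiment 1 and nearly alike in the close pair of experiment 2. As log2(CPM + 0.5) minus KMT2D-WT of the same experiment, that pair was at -0.62 (labelled KO1) and -0.67 (KO2). In experiment 1 KO1 was at -0.13 and KO2 at -0.67. Of 12 p53 target genes, a class that includes DDB2 and XPC, 1 was lower and 1 higher with glucose, and 4 were lower and 3 higher without, or 0 and 1 after summing. These shares were near or below the shares of all genes, which were 11.7% and 13.0%, 24.9% and 25.9%, and 7.52% and 8.99% in the same order, apart from the lower genes without glucose, which were somewhat above. Their part in the DDB2 and XPC values was not tested. XPA, which verifies the lesion, ERCC2, the XPD helicase, ERCC5, ERCC8 and CETN2, the centrin of the XPC complex, passed in neither condition.

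In end joining, DCLRE1C, the Artemis nuclease that opens hairpin ends, was with glucose at 26.3, 38.5 and 42.3 CPM in the KMT2D-WT libraries and 18.8, 18.8, 31.6 and 32.2 CPM in the KMT2D-KO libraries, with a log2 fold change of -0.39 ± 0.09 (SE) and an adjusted p = 0.0127 by edgeR's test. With KMT2D-WT of experiment 1 or the second KMT2D-WT of experiment 2 left out it was 0.0529 to 0.117, and without glucose the log2 fold change was -0.05. POLM, a gap-filling polymerase, was with glucose at 30.6, 34.01 and 25.6 CPM in the KMT2D-WT libraries and 23.4, 17.9, 20.1 and 15.7 CPM in the KMT2D-KO libraries. Every KMT2D-KO library was below every KMT2D-WT library, with -0.67 ± 0.16 (SE) on the log2 scale and an adjusted p = 0.0138 in edgeR, or 0.0668 to 0.0732 without KMT2D-WT of experiment 1 or the first of experiment 2. Without glucose POLM, POLL, a related polymerase, and TP53BP1, which limits end resection, passed as lower at -0.53, -0.33 and -0.21, and XRCC6 as higher at 0.36, none of them after summing. With an offset for gene length TP53BP1 changed sign and did not pass, and 28.8% of its exonic bases are shared with TUBGCP4. XRCC5, the other Ku subunit, LIG4 and NHEJ1 passed in neither condition.

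The KO effects in the 2 glucose conditions rest on separate libraries. Over the 46 genes their log2 fold changes had a Pearson correlation of 0.717 and a Spearman correlation of 0.635, given as a description since the libraries of each experiment and line share their cells, and 33 genes had the same sign, 24 of them negative. With exonic length (log2) the Spearman correlation was -0.131 with glucose and -0.283 without.

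**Figure D3:**
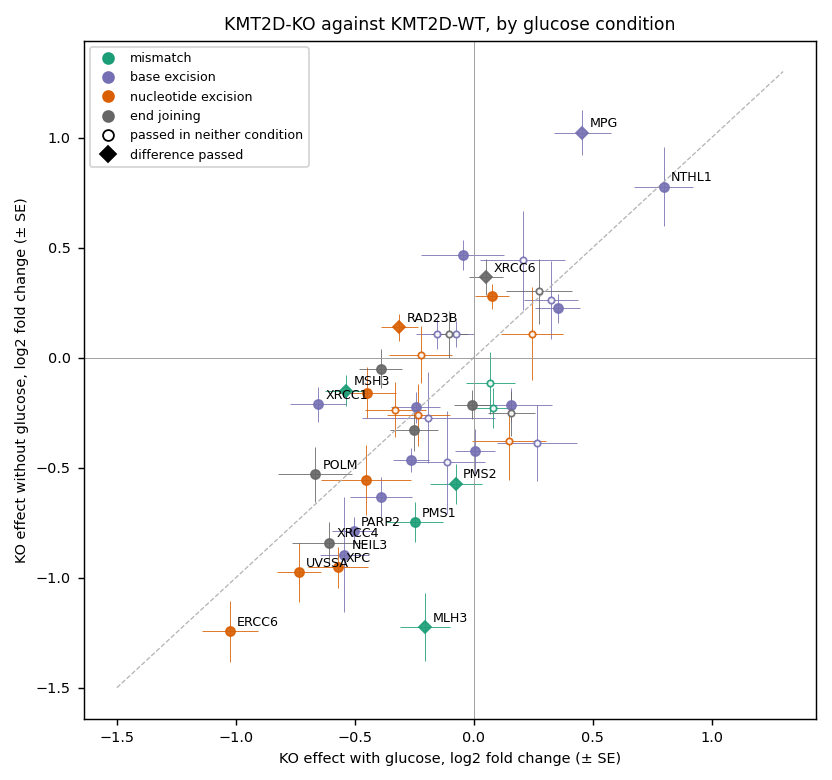
Log2 fold change of KMT2D-KO against KMT2D-WT with glucose (horizontal) and without (vertical) for the 46 genes, with SE bars; colour gives the route, open symbols genes that passed in neither condition, diamonds genes whose effect differed, and the dashed line equal effects. ERCC6 is lowest in both directions at -1.02 and -1.24, and MLH3 lies far below the dashed line.

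Whether the KO effect depended on glucose was tested in 1 fit of all 14 libraries. The effect was lower without glucose for 2 of the 46 genes and higher for 4, where 6.54% and 4.73% of the 18678 genes tested were lower and higher. MLH3 had the largest difference, -0.99 ± 0.20 (SE) on the log2 scale with an adjusted p = 0.0104 by edgeR's quasi-likelihood test. With glucose it was at 21.1, 36.2 and 35.3 CPM in the KMT2D-WT libraries and 20.1, 21.4, 28.2 and 28.9 CPM in the KMT2D-KO libraries, overlapping, whereas without glucose the groups were apart. PMS2 differed by -0.47 ± 0.13 (SE) with an adjusted p = 0.0396 in edgeR, from 21.6, 32.7 and 33.8 CPM in the KMT2D-WT libraries and 23.2, 20.1, 32.7 and 27.8 CPM in the KMT2D-KO libraries with glucose to 24.4, 38.2 and 37.2 CPM in the KMT2D-WT libraries and 18.3, 17.1, 24.9 and 24.4 CPM in the KMT2D-KO libraries without. Thus the KMT2D-KO libraries of PMS2 overlapped KMT2D-WT in each condition and were lower within each experiment in the absence of glucose.

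For MSH3 and RAD23B the lower level with glucose was smaller or absent without it. MSH3 was at 30.97, 50.6 and 51.1 CPM in the KMT2D-WT libraries and 25.01, 29.1, 48.8 and 46.8 CPM in the KMT2D-KO libraries in the absence of glucose, and the effects differed by 0.41 ± 0.12 (SE) with an adjusted p = 0.0398 in edgeR. RAD23B was at 354, 461 and 454 CPM in the KMT2D-WT libraries and 341, 383, 531 and 548 CPM in the KMT2D-KO libraries there, with a difference of 0.48 ± 0.11 (SE) and an adjusted p = 0.02 in edgeR. The gain of MPG was larger without glucose by 0.59 ± 0.16 (SE), adjusted p = 0.0308 in the same edgeR fit. XRCC6, at 433, 395 and 387 CPM in the KMT2D-WT libraries and 436, 452, 394 and 418 CPM in the KMT2D-KO libraries with glucose and 441, 350.4 and 359 CPM in the KMT2D-WT libraries and 605, 522, 470.4 and 466 CPM in the KMT2D-KO libraries without, differed by 0.34 ± 0.10 (SE) with an adjusted p = 0.0463 in edgeR, and has 5 pseudogene copies. None of the 6 passed when the close pairs were summed or when the terms for experiment were left out, and the call of MLH3 was lost when KMT2D-WT of experiment 1 was left out in either condition (adjusted p = 0.0569 to 0.0608 in edgeR). For the other 5 genes between 6 and 11 of the 14 libraries each ended the call when left out, with an adjusted p of up to 0.149 in edgeR. These always included the first and the last KMT2D-WT library with glucose and the 4 libraries of experiment 2 without.

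**Figure D4:**
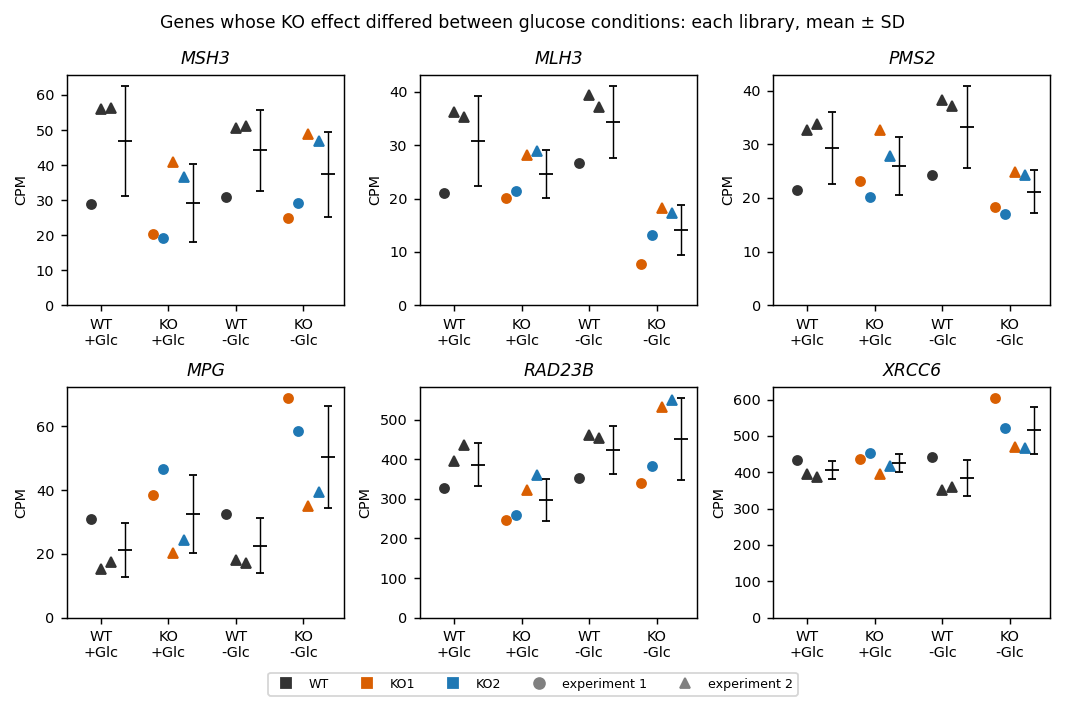
CPM of the 6 genes whose KO effect differed between glucose conditions, per library, with the same symbols and mean ± SD bars as the plot of genes that passed in both conditions. MLH3 overlaps with glucose and separates without it, where the KMT2D-KO libraries lie between 7.77 and 18.2 CPM, and RAD23B with glucose is lower in KMT2D-KO than in KMT2D-WT within each experiment.

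The response to deprivation itself was tested in experiment 1, in which all 6 libraries were counted alike, with line as a block. None of the 46 genes passed edgeR's quasi-likelihood test, where 0.622% of the 16066 genes tested were lower and 0.479% higher, and 7 of the 46 had an unadjusted p under 0.05, as did 3111 of the 16066. DESeq2 with the same terms also called 0. The 5 smallest p-values were those of MSH6, UVSSA, MBD4, ERCC2 and NEIL3. As log2(CPM + 0.5) without minus with glucose, MSH6 was -0.19 in KMT2D-WT cells, -0.50 in KO1 and -0.70 in KO2, the same sign in each line. UVSSA was -0.41 in KMT2D-WT cells, -0.74 in KO1 and -0.21 in KO2, negative in each line. MBD4 was -0.09 in KMT2D-WT cells, -0.54 in KO1 and -0.77 in KO2, nearest to 0 in KMT2D-WT. ERCC2 was positive throughout, at 0.37 in KMT2D-WT cells, 0.31 in KO1 and 0.54 in KO2. NEIL3 was -0.30 in KMT2D-WT cells, -0.16 in KO1 and -1.27 in KO2, farthest from 0 in KO2. Their adjusted p in edgeR were 0.151, 0.194, 0.199, 0.207 and 0.224.

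Over the 46 genes, 9 were lower in all 3 lines, 11 higher in all 3 and 26 mixed, while of 14085 genes with a mean of at least 1 CPM 21.5% were lower and 24.8% higher in all 3. MLH3 was mixed, at 0.34 in KMT2D-WT cells, -1.32 in KO1 and -0.67 in KO2. In experiment 2 the libraries with glucose were counted with both mates and those without were not, so deprivation and counting cannot be told apart there.

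**Figure D5:**
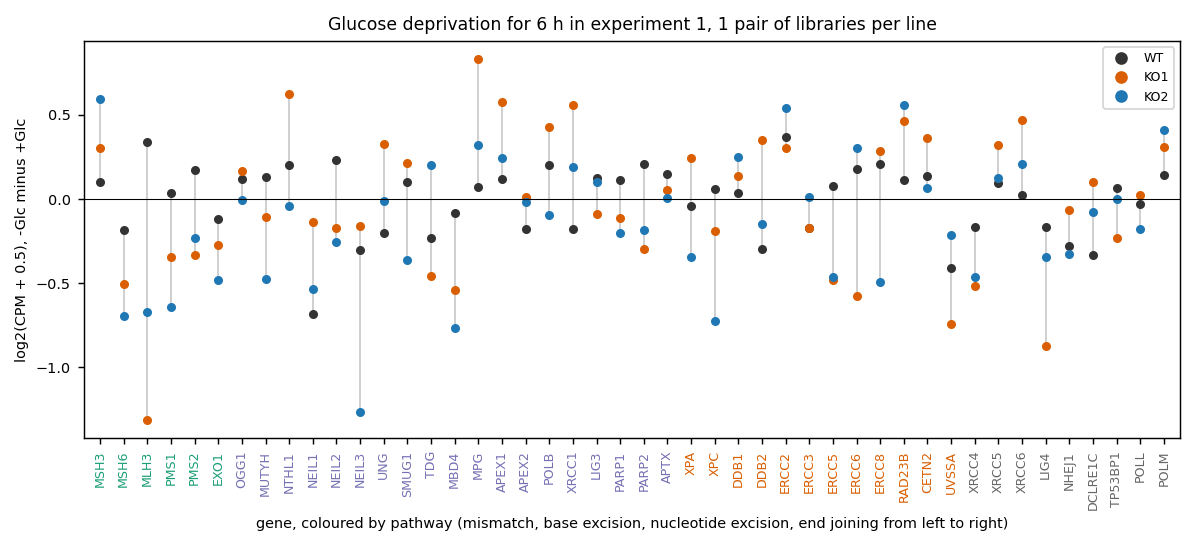
Change after 6 h without glucose in experiment 1 as the difference in log2(CPM + 0.5), 1 point per line for each of the 46 genes, with gene names coloured by route and a grey line spanning the 3 lines. MLH3 is at 0.34 in KMT2D-WT and, in KO1, at -1.32, and MSH6, UVSSA and ERCC2 have points on 1 side of 0 only.

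Of 45 further genes of the same routes, 44 were tested. With glucose 6 were lower and 2 higher, against 11.7% and 13.0% of all genes. Without glucose 6 were lower and 7 higher, against 24.9% and 25.9%, and 1 and 2 of these passed after summing, against 7.52% and 8.99%. PARP3, a relative of PARP1 active at double-strand breaks, had the lowest log2 fold change with glucose at -0.94. It passed as lower without glucose too, at -0.34, though not after summing. With glucose POLE, the leading-strand polymerase, had -0.63 and LIG1, the replicative ligase, -0.36. TDP1, which removes stalled topoisomerase I from DNA ends, was likewise lower in both conditions, at -0.39 and -0.68, as was SHLD2, a shieldin subunit that acts with TP53BP1, at -0.47 and -0.73. The 2 higher genes with glucose were SHLD1, another shieldin subunit, at 0.84 and MAD2L2 at 0.30. Without glucose MAD2L2 passed again as higher at 0.71, while SHLD1, also at 0.71, did not pass. Without glucose GTF2H2, a subunit of the TFIIH complex that holds ERCC2 and ERCC3, was at -0.94, and passed after summing, as did the clamp loader subunit RFC1 and the TFIIH kinase CDK7, which were higher at 0.65 and 0.60. The median log2 fold change of the 44 genes was -0.08 with glucose and -0.04 without, nearer to 0 than that of the 46.

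Without the term for experiment, 1 of the 46 genes passed with glucose and 8 without, where 4.75% and 21.8% of all genes passed. The counts thus fell along with those over all genes, and the fall cannot be read as particular to these genes.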

How the data were processed

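RNA-seq counts of 14 SCC23 libraries were analysed, grouped by the genotype and glucose condition in their labels. The authors aligned reads with HISAT2 to GRCh38 and deposited unnormalized counts per gene name from featureCounts 2.0.3 with the Ensembl 102 annotation, without strand and for primary alignments, so reads shared by overlapping genes or gene copies can be lost or misplaced. The lengths used per kilobase are the exonic lengths deposited in the same tables. In 4 libraries both mates were counted. Counts were tested over all genes with edgeR 4.0.16 in R 4.3.3 (TMM, filterByExpr with a minimum count of 10, quasi-likelihood test, Benjamini-Hochberg adjusted p under 0.05), with experiment as a block. Experiment differences were correlated over 18678 genes between KMT2D-WT and KMT2D-KO at 0.92 with and 0.829 without glucose. The difference between conditions was fitted over 14 libraries, and deprivation in 6 with line as a block. Alternatives included DESeq2 1.42.0, RLE scaling, other filters, an offset for gene length, halved counts, single experiments or lines, and leaving out each library. Scripts were tested on simulated data. The genes, lists and rules were chosen with earlier results of these data known. Genes given per-library values passed with glucose, without glucose in both fits, in the difference, or had 1 of the 5 smallest p-values for deprivation, with further genes named by their values. The pseudocount in log2 values outside the fits was 0.5 CPM. Some other genes of these routes are not reported here.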

Additional observations from a re-analysis of the deposited data

Results flagged for a closer look

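A library that stood far from the other 3 of its KMT2D-KO group was seen in 3 of 92 groups checked, where chance alone gives about 5% of groups. TDG, the thymine glycosylase, was at 13.98 CPM in KO1 of experiment 1 without glucose, against 30.1 CPM in the next library. EXO1 was at 36.5 CPM in KO2 of experiment 1 without glucose, against 50.9 CPM in the next. MUTYH was at 3.001 CPM in KO2 of experiment 1 with glucose, against 1.73 CPM in the next. In the groups without glucose, 2 of the other 3 libraries are the close pair of experiment 2.

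For 6 genes the KO effect differed between the glucose conditions by edgeR's test of the difference itself. As log2 fold change without minus with glucose, the difference was 0.41 for MSH3, -0.99 for MLH3, -0.47 for PMS2, 0.59 for MPG, 0.48 for RAD23B and 0.34 for XRCC6. None passed after the close pairs were summed.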

How the results depend on the processing

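Of the 46 genes, 16 passed with glucose, 24 without, 6 in the difference and 0 for deprivation. Shares of all genes are given above for the main fits and below for most other settings. The counts for deprivation with 1 library left out have no such share beside them, so they describe those settings only. Without the replicate block, that is without experiment as a term, the numbers were 1 with glucose, 8 without and 0 in the difference, and 0 for deprivation without the line block. Of all genes 4.75%, 21.8%, 0.375% and 0% passed there, in the same order. Experiment 1 alone has 1 KMT2D-WT library per glucose condition, so no count of KO effects is given for it. Experiment 2 alone gave 6 with glucose, 40 without and 21 for deprivation, where 11.7%, 74.5% and 49.9% of all genes passed. The 40 rest on the 2 close pairs alone, which supply the whole spread between replicates there. All 14 libraries in 1 fit also gave 21 for deprivation. DESeq2 without experiment gave 3 and 12, and with it 13 in the difference. Requiring a 1.5-fold change left 6 and 11. With the close pairs summed, 8 passed without glucose and 0 in the difference. Leaving out 1 library gave 6 to 16 with glucose, 15 to 40 without, 0 to 14 in the difference and 0 to 1 for deprivation. With an offset for gene length TP53BP1 without glucose turned to 0.0035 (log2), LIG3 came to -0.0082 and PARP1 to -0.20 without glucose and -0.15 with it, and none of them passed. Apart from TP53BP1, no gene described as passing changed sign. ERCC6, MLH3, MPG, PARP2, UVSSA and XPC without glucose lost their call only in experiment 1 alone, with its 1 KMT2D-WT library per condition. The other causes were not tested. Genes of few counts, such as MUTYH, are limited by depth.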

Other observations

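Levels of several repair genes differed between the 2 experiments in every group. LIG4 was at 8.84 to 16.7 CPM in the 6 libraries of experiment 1 and at 27.5 to 36.01 CPM in the 8 libraries of experiment 2. PMS1 was at 8.58 to 14.96 CPM in experiment 1 and at 21.3 to 39.3 CPM in experiment 2. In none of the 7 libraries without glucose were both mates counted, and among these LIG4 was still at 8.84 to 11.7 CPM in experiment 1 and 27.5 to 34.25 CPM in experiment 2, and PMS1 at 8.58 to 14.96 and 21.3 to 35.7 CPM. These values were not tested, and experiment cannot be told apart from the way the libraries were made.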
